A study of Mus musculus with 38 samples.

Results

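The genes described here are 10 genes of Wnt signalling: the ligand genes Wnt1, Wnt3, Wnt3a, Wnt5a, Wnt6, Wnt7b, Wnt8a and Wnt10b, the feedback inhibitor gene Axin2 and the transcription factor gene Lef1. They were taken by name from the 21938 protein-coding genes of GENCODE M21, and each was followed over its gene body with 5 kb on either side (its window). The cells were mouse embryonic stem cells (mESCs), line ES-E14TG2a, cultured in serum with leukaemia inhibitory factor (LIF) and collected at 0 h, that is, before differentiation. IκBα-KO (KO) cells had lost IκBα, the inhibitor of NF-κB that Nfkbia encodes, through CRISPR-Cas9 with a pair of guides to the first exon of Nfkbia, and IκBα-WT (WT) cells were control clones of the same line. Each genotype had 3 libraries for each of H3K4me3, H3K27me3, H3K9me3, H3K27ac and H3K4me1, described by the study as independent clones, so 30 of the 38 samples were ChIP-seq libraries and the other 8 were inputs.

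Wnt ligands are secreted, lipid-modified proteins. In the canonical branch of the pathway they bind Frizzled and LRP receptors, stop the destruction complex from marking β-catenin for degradation, and let β-catenin act with TCF/LEF factors on target genes, among them Axin2, whose product feeds back on the destruction complex, and Lef1. In mESCs the pathway is known to sustain self-renewal, while several of the ligand genes are held silent under Polycomb until the primitive streak and later tissues form. H3K27me3 is the Polycomb mark, H3K4me3 lies at promoters, H3K27ac at active promoters and enhancers, H3K4me1 at enhancers, and H3K9me3 in heterochromatin, and a promoter with both H3K4me3 and H3K27me3 is called bivalent.

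The sequences below, from RefSeq on GRCm38.p6, are the promoters of Axin2, Wnt6 and Lef1, the genes with the calls described at most length further on, and an upstream stretch of Lef1, with each CG dinucleotide in capitals. The Axin2 promoter (chr11:108920099-108920398, plus strand) has 31 CG dinucleotides, and an H3K4me3 peak reached over its 3′ part in all 6 libraries and over its first 139 bp in all 3 KO and no WT library. That of Wnt6 (chr1:74771642-74771941, plus strand) has 31 and lies under H3K27me3. The first of the Lef1 promoters (chr3:131110047-131110346, plus strand) has 18, and a stretch upstream of Lef1 (chr3:131106528-131106827, plus strand) has 27 and lies in the H3K4me3 peak that was weaker in KO cells.
Axin2 promoter: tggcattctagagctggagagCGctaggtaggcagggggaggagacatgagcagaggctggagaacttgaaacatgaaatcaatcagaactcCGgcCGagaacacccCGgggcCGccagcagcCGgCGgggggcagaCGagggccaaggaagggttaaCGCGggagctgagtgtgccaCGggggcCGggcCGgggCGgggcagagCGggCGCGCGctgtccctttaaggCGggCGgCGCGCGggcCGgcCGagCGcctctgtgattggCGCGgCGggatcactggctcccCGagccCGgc
Wnt6 promoter: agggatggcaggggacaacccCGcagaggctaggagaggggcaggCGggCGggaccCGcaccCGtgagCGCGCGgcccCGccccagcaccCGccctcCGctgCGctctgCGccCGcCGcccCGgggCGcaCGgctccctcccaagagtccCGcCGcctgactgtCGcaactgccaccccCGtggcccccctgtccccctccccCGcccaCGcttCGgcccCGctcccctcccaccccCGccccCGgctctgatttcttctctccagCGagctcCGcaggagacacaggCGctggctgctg
Lef1 promoter: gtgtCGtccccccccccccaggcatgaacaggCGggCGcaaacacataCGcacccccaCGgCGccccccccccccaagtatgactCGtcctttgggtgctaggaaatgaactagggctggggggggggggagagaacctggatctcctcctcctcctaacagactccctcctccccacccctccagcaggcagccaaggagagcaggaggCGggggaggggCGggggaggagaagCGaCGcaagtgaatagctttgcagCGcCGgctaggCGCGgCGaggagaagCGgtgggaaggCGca
Lef1 upstream stretch: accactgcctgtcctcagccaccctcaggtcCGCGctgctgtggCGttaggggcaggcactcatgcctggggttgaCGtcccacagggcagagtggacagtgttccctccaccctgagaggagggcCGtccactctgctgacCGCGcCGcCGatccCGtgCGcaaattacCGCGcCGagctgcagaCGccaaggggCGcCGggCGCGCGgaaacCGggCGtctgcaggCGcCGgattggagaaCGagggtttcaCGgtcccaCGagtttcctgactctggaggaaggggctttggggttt

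Over 32851 RefSeq promoters of this length (250 bases before to 50 after the start) the median was 7 CG dinucleotides, and over the central 300 bases of the 14907 H3K4me3 regions called in all 6 libraries it was 21. The sequences CTTTGAT and CTTTGTT, searched on both strands as the core of TCF/LEF sites, do not overlap each other and occurred in none of the 4 stretches shown. They occurred in 9.33% of all promoters and in 5.46% of the central stretches of H3K4me3 regions. The promoter table held 10 promoters of 7 of the 10 genes, and among these Wnt3 had 1 TCF/LEF match. The κB consensus, the site that NF-κB binds, had 2 matches at the Wnt10b promoter and none at the other 9, against 8.46% of all promoters with at least 1. Wnt3a had the most CG dinucleotides of the 7 genes, 45 (chr11:59290702-59291001, minus strand), and 1.93% of all promoters had at least as many.

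Coordinates are 1-based on GRCm38. Wnt6 is at chr1:74771892-74785322, Lef1 at chr3:131110471-131224356 and Wnt5a at chr14:28504750-28527448. Chromosome 11 holds Wnt3a (chr11:59248033-59290752), Wnt3 (chr11:103774150-103817957) and Axin2 (chr11:108920349-108950783). Chromosome 15 holds Wnt7b (chr15:85535437-85582473) and the neighbours Wnt10b (chr15:98770712-98778150) and Wnt1 (chr15:98789857-98793837), whose windows are 1706 bp apart. Wnt8a is at chr18:34542313-34548273.

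The measurements were calls made by the authors in each library, as regions of H3K27me3, H3K9me3, H3K27ac and H3K4me1 and as peaks of H3K4me3. The region lists held 8548342 to 35951506 ChIP reads within calls per library, and the H3K4me3 lists held 21836 to 26806 peaks and no counts. KO libraries had more sequence called for H3K27ac (411 to 419 Mb against 380 to 393 Mb in WT) and H3K4me3 (19.0 to 22.1 Mb against 17.2 to 19.3 Mb), and less for H3K9me3 (172 to 186 Mb against 202 to 207 Mb). KO libraries also had more for H3K27me3 (267 to 278 Mb against 214 to 259 Mb in WT) and slightly less for H3K4me1 (476 to 483 Mb against 486 to 488 Mb). The first WT library of H3K27me3 had 214 Mb called, against 259 to 278 Mb in the other 5. The promoter windows (5000 bp upstream to 100 bp downstream of the 5′ end) of the pluripotency genes Pou5f1, Sox2 and Nanog were under H3K27ac calls over all 5101 bp in all 6 libraries and had no H3K27me3 call. That of Esrrb, another pluripotency gene, had no H3K27ac call at its annotated 5′ end and 4301 to 5101 bp under H3K27me3. Of the markers of other lineages, Gata6, Pax6, Cdx2, Sox17, Neurog1 and Olig2 had 5101 bp under H3K27me3 in all 6 libraries. Eomes and Gata4 had 4112 to 5101 bp, and Elf5 had 3901, 2588 and 988 bp in WT and 0, 1388 and 513 bp in KO. H3K27ac was also called in all 6 libraries at Gata6 (164 to 4564 bp), Pax6 (2400 to 4800 bp) and Cdx2 (1031 to 4831 bp). The same held at Eomes (1712 to 3712 bp), Neurog1 (1738 to 5101 bp) and Olig2 (3144 to 5101 bp), but not at Sox17, Gata4 or Elf5. These data are of bulk cells, so fewer cells that carry a mark and less of the mark per cell cannot be told apart. Calls do not show the lesion at the targeted gene Nfkbia: its promoter window was under H3K27ac throughout in all 6 libraries, and its H3K4me3 peaks covered 479, 731 and 704 bp in WT and 0, 360 and 586 bp in KO. The merged H3K27ac region that overlaps this window was denser in KO by 0.25 on the log2 scale (edgeR, adjusted p = 3.18e-05). That value is of the whole region chr12:55396401-55524600, not of the promoter window alone.

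All 8 ligand genes lay under H3K27me3 in both genotypes. Calls covered 100% of the window of Wnt1 and of Wnt10b in every library. At the other 6 ligand genes the mean share of the window was 86.3% to 100% in WT and 82.7% to 98.3% in KO. Axin2 and Lef1 were only partly covered, with 31.4% and 46.5% in WT and 18.3% and 62.0% in KO. H3K27ac and H3K4me1 calls were also present at all 10 genes in all 6 libraries. At the ligand genes H3K27ac lay for the most part on sequence that was under H3K27me3 too: at Wnt7b, 46764 of the 48364 bp called for H3K27ac in at least 2 of 3 WT libraries were also called for H3K27me3. H3K9me3 was called in all 6 libraries at Wnt3, Axin2 and Lef1, in 1 WT library at Wnt7b, and at none of the other 6 genes. H3K4me3 peaks were absent from all 3 WT libraries at Wnt8a and were found in 1 KO library there, over 524 bp.

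**Figure D1:**
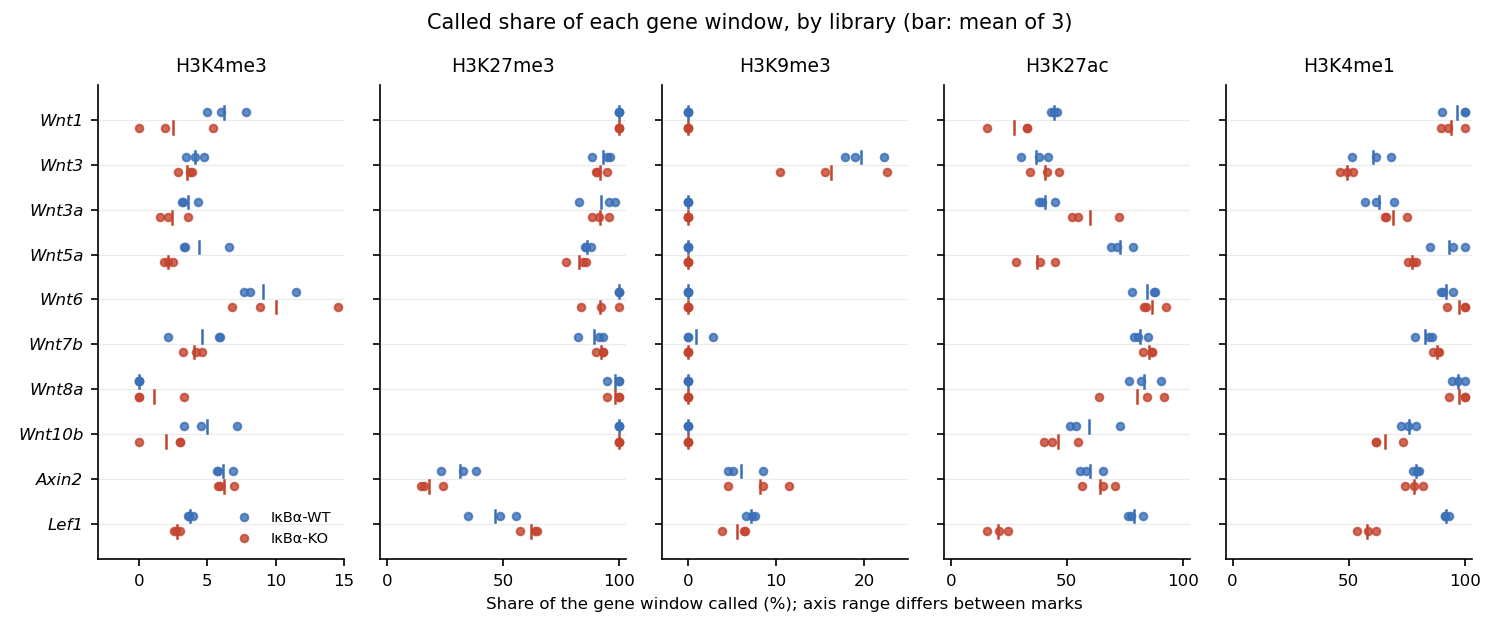
Share of each gene's window (gene body with 5 kb on either side, percent) under calls of each mark, 1 point per library, for the 10 genes and 5 marks. The KO points of H3K27ac at Lef1 lie near 20.3% and the WT points near 79.0%, and the H3K27me3 points of the 8 ligand genes lie near the top of the axis in both genotypes.

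The covered bp of a window were compared between 3 WT and 3 KO libraries with a two-sided exact permutation test of the difference of means. Its 20 assignments cannot give a p below 0.1, which is also the p of every pair of groups that does not overlap. For H3K27ac, 1 of the 10 genes was higher in KO without overlap (Wnt3a) and 3 were lower (Lef1, Wnt5a and Wnt1), against 21.6% and 8.2% of the protein-coding genes with any call. For H3K4me1, 1 was higher (Wnt7b) and 2 were lower (Lef1 and Wnt5a), against 11.7% and 15.4%. For H3K4me3, none was higher and 3 were lower (Lef1, Wnt5a and Wnt10b), against 24.5% and 7.25%. For H3K27me3, 1 was higher (Lef1) and none was lower, against 10.9% and 7.61%. For H3K9me3, none was higher and 1 was lower (Lef1), against 4.76% and 11.4%. Lef1 was thus without overlap in each of the 5 marks and Wnt5a in 3 of them. Since the windows differ in length and the 10 genes are few, these counts describe the genes and were not tested as a set.

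Where calls were present in all 6 libraries, ChIP reads were compared per kb of called sequence over merged regions (edgeR, with the covered length of each library as an offset), and for H3K4me3 the highest fold enrichment over input of each library's peaks (limma). All regions of a mark were tested together with Benjamini-Hochberg adjustment, and a region was called at an adjusted p under 0.05. For H3K27ac, 20 regions at the 10 genes were tested, of which 1 was higher and 1 lower in KO, against 8.19% and 4.56% of all regions. For H3K4me1, 1 of 20 was higher and 4 were lower, against 4% and 1.64%. For H3K27me3, none of 18 was higher and 1 was lower, against 1.7% and 1.04%. For H3K4me3, 1 of 11 regions at 6 genes was higher and 1 was lower, against 8.81% and 9.25%.

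For H3K9me3, 0 of 3 regions passed in edgeR, 0 had an unadjusted p under 0.05 and DESeq2 called 0, against 0.168% of all regions higher and 0.267% lower. The median log2 difference, KO minus WT, of the regions at the 10 genes was −0.04 for H3K27ac, −0.01 for H3K4me1, 0.00 for H3K27me3, −0.03 for H3K4me3 and −0.08 for H3K9me3. Over all regions tested it was −0.01, 0.00, 0.00, −0.01 and 0.00 in the same order.

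The direction of the calls over all regions depended on the scaling of the libraries. Of all H3K27ac calls, 64.2% were higher in KO, against 34.9% without TMM scaling and 13.9% with TMM computed before the length offset, where the median region stood at −0.13. The same shares were 70.9%, 52.6% and 90.6% for H3K4me1 and 62.1%, 56.5% and 21% for H3K27me3. For H3K9me3, with few calls, the share was 38.7% and became 74.6% with TMM before the offset. For H3K4me3 it was 48.8%, and 63.7% without centring the libraries.

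**Figure D2:**
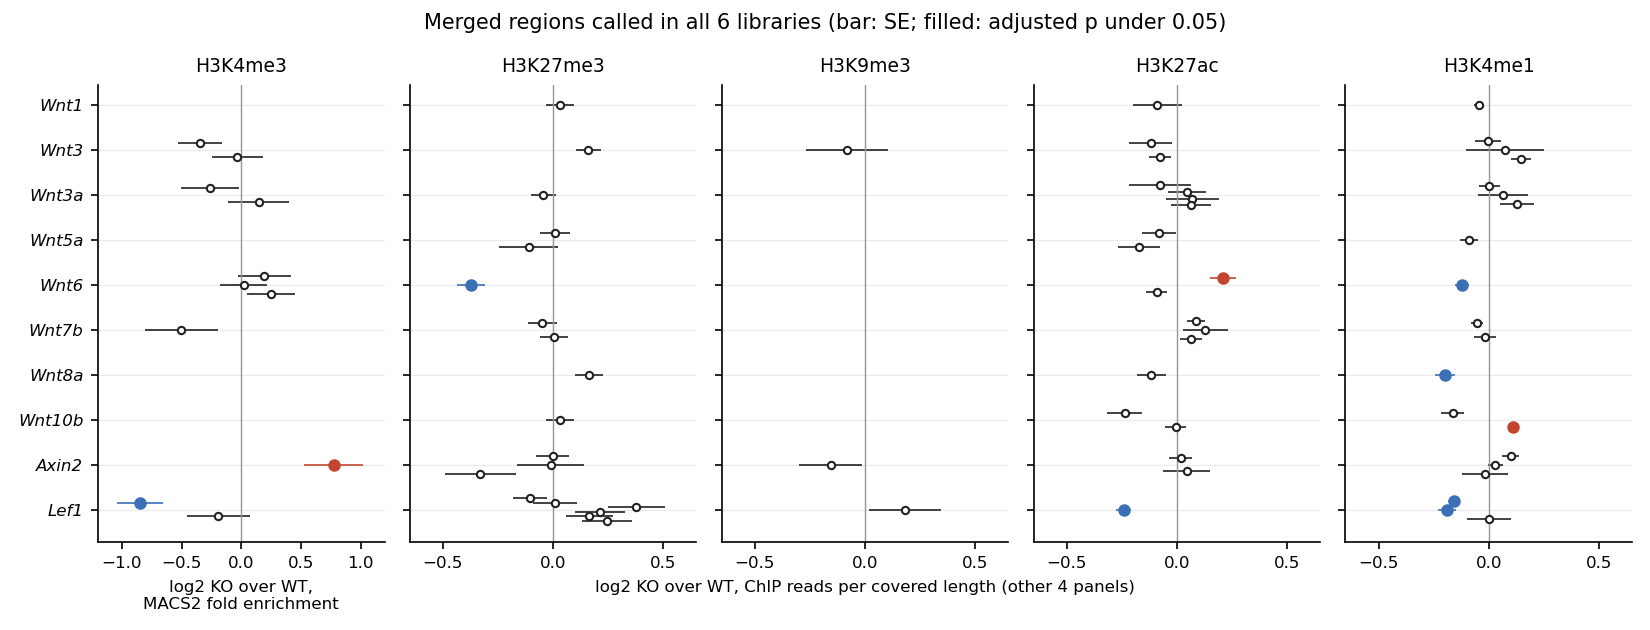
Log2 difference, KO minus WT, of each merged region at the 10 genes with its standard error, by mark; regions past the adjusted threshold are filled, red where higher and blue where lower in KO. The point farthest below 0 is the upstream H3K4me3 region of Lef1 (−0.85) and the highest filled point is the H3K4me3 region of Axin2 (0.77).

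Lef1, which encodes a TCF/LEF factor with an HMG box that recruits β-catenin to target genes, had the largest difference in covered share of the 10 genes and 5 marks. H3K27ac calls covered 96130, 94730 and 102730 bp of its 123886 bp window in WT and 25530, 30530 and 19330 bp in KO. The groups did not overlap, and in covered bp every WT library stood far above every KO library. These are lengths of called sequence, and the density of the calls is given further on. The mean difference was −72733 bp, or 79.0% of the window in WT against 20.3% in KO (exact permutation test, p = 0.1). The reads within these calls numbered 5225, 4997 and 5717 in WT and 1278, 1506 and 929 in KO. In RPM, scaled by each library's reads in called regions, this was 228, 212 and 228 against 45.7, 53.1 and 38.3, while the KO libraries as a whole had more sequence called for this mark than the WT libraries.

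The parts of Lef1 that kept and lacked H3K27ac calls lay in different places. Within the window 45200 bp were called in all 3 WT and in no KO library. The longest such stretches were chr3:131132801-131141600, 8800 bp of intron, chr3:131115601-131122800, of which 1787 bp are annotated exon, and chr3:131174801-131180400, 5600 bp of intron. Calls were kept in all 6 libraries around the 5′ end (chr3:131109401-131113000), over 3130 bp upstream of it (chr3:131105471-131108600) and over an intronic stretch of 6000 bp that begins 32130 bp into the gene (chr3:131142601-131148600). They were also kept over 1600 bp (chr3:131157601-131159200) and 1000 bp (chr3:131155801-131156800) of the gene body. The 1000 bp hold a RefSeq promoter inside the gene (chr3:131156044-131156343). No sequence in the window was called in all 3 KO and no WT library.

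**Figure D3:**
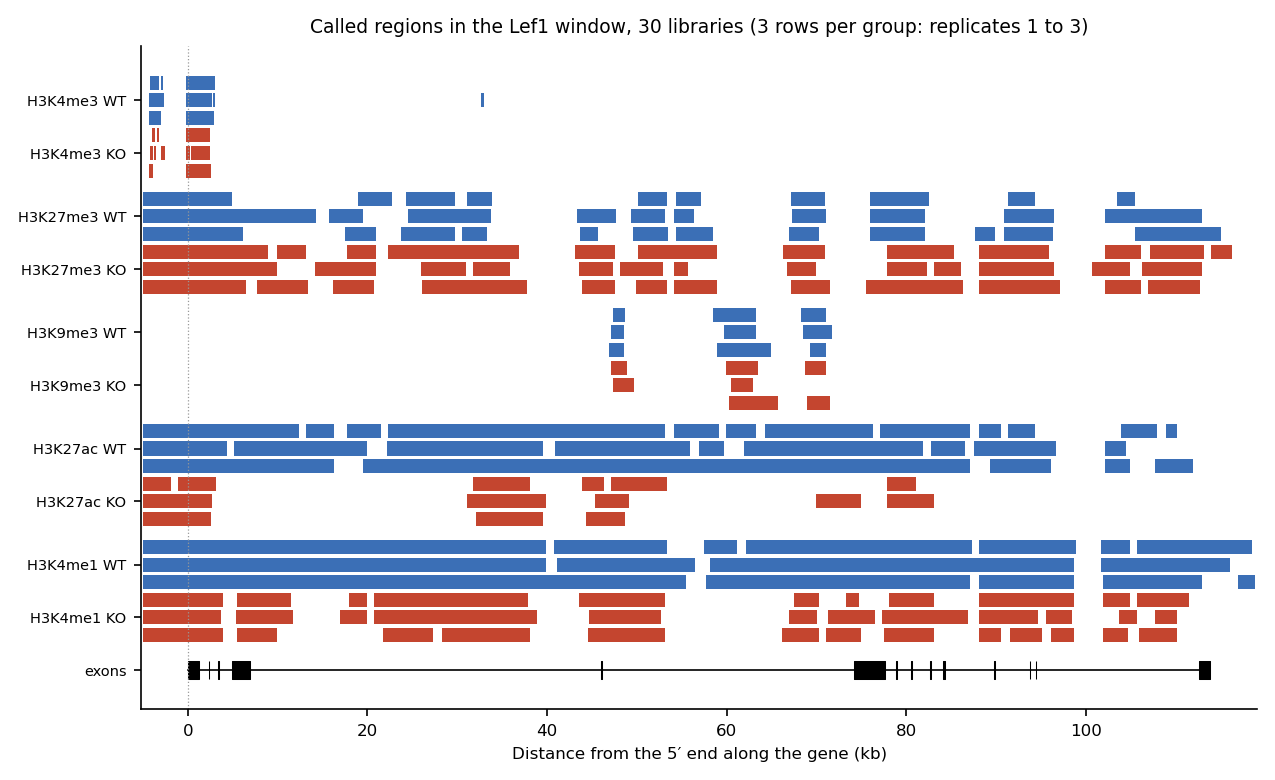
Calls of each of the 30 libraries over the Lef1 window, by kb from the 5′ end, with WT libraries in blue, KO libraries in red and annotated exons drawn along the gene. H3K27ac and H3K4me1 calls run over most of the gene in WT and are broken up in KO. The places that kept H3K27ac include the 5′ end and an intronic stretch that begins 32130 bp into the gene.

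H3K4me1, the enhancer mark, was called over less of the same gene in KO. The KO libraries as a whole also had slightly less sequence called for H3K4me1. At Lef1 its calls covered 113130, 115330 and 113486 bp in WT and 72330, 76330 and 66530 bp in KO, without overlap. Here 21200 bp were called in all 3 WT and no KO library, and no bp the other way round. The longest of these stretches was chr3:131122201-131127400, 5200 bp of intron. In WT cells 99130 of the 102130 bp with H3K27ac in at least 2 of 3 libraries also carried H3K4me1, and in KO cells 21930 of 23530 bp did.

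H3K27me3 was called over more of Lef1 in KO, and the KO libraries as a whole also had more sequence called for this mark. Calls covered 43330, 69130 and 60330 bp in WT and 80330, 70930 and 79130 bp in KO, a mean difference of 19200 bp without overlap. The lowest value came from the first WT library, which had the least sequence called in the whole genome, and without it the difference was 12067 bp and the groups still did not overlap. The promoter window was fully covered in both genotypes, and the 5200 bp called in all 3 KO and no WT library lay in the gene body. Of the 78600 bp that had H3K27ac in WT but not in KO (at least 2 of 3 libraries each), 44.8% was called for H3K27me3 in WT and 63.6% in KO. By the same measure H3K27me3 was called over 56530 of the 123886 bp of the whole window in WT and 76930 bp in KO. The higher share in KO was thus also seen over the window as a whole. Whether the sequence without H3K27ac in KO differed from the rest was not tested.

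Read densities were taken over the sequence that each library itself had called, which was not the same sequence in WT and KO. In the H3K27ac region over Lef1 (chr3:131089601-131197600) this was 100600, 98800 and 104800 bp in WT and 35200, 38600 and 29200 bp in KO. The density there was 59.1, 58.5 and 58.2 normalised reads per covered kb in WT and 48.2, 48.6 and 52.4 in KO. That is a log2 difference of −0.24 ± 0.034 (SE), past the threshold (edgeR, adjusted p = 0.00055). Without the length offset, an alternative chosen after seeing the data, the same region differed by −1.92 (edgeR, adjusted p = 1.25e-06), since the reads then fall with the called length. When reads were instead assigned to the gene window in proportion to the overlap, the difference per covered kb was −0.17 and did not pass (edgeR, adjusted p = 0.0645). In WT the Lef1 region was less dense than the H3K27ac regions at Pou5f1, Sox2 and Nanog (97.5 to 124.9 normalised reads per covered kb). It lay within the range at Cdx2, Eomes, Gata6, Pax6, Neurog1 and Olig2 (48.5 to 66.95). WT calls in the Lef1 window had 54.35, 52.75 and 55.65 unscaled reads per kb. All calls of these libraries had 60.13, 61.97 and 63.94. How far the sequence uncalled in KO lay from the calling threshold was not tested.

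A pair of H3K4me1 regions at Lef1 also fell in density. The one that spans the 5′ end (chr3:131089601-131167000) had 88.7, 88 and 86.1 normalised reads per covered kb in WT and 77.4, 76.5 and 82.0 in KO, a log2 difference of −0.16 ± 0.027 (edgeR, adjusted p = 0.00264). The next (chr3:131168001-131209400) had 65.9, 65.9 and 66.5 in WT and 58.5, 55.0 and 60.8 in KO, a log2 difference of −0.19 ± 0.041 (edgeR, adjusted p = 0.0141). Neither overlapped between genotypes. The second did not pass without the second WT (adjusted p = 0.355), the third WT (0.0523) or the second KO library (0.0745). With TMM before the length offset neither passed in edgeR (adjusted p = 0.0781 and 0.0916). The third region, over the 3′ end, had a log2 difference of 0.00. None of the 6 H3K27me3 regions in the window passed, nor did the H3K9me3 region, an intronic one with 44.3, 49.3 and 37.6 reads per covered kb in WT and 51.2, 57.4 and 41.3 in KO.

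H3K4me3 marked a pair of places at Lef1. Peaks around the 5′ end (chr3:131110218-131113536) had fold enrichments of 10.6, 7.50 and 13.7 in WT and 5.64, 11.8 and 12.8 in KO, which overlapped (log2 difference −0.19; limma, adjusted p = 0.638). Upstream, at chr3:131106129-131107961, the values were 8.04, 7.19 and 6.79 in WT and 4.69, 4.35 and 3.87 in KO. The upstream peaks did not overlap and fell by 0.85 ± 0.19 on the log2 scale (limma, adjusted p = 0.0094). Sequence 4209 to 3378 bp upstream of the 5′ end was called in all 3 WT libraries, and it holds the upstream stretch printed above, in which there are 27 CG dinucleotides, a number reached by 35.9% of the H3K4me3 regions. Over the window, H3K4me3 peaks covered 4416, 4893 and 4524 bp in WT and 3342, 3737 and 3206 bp in KO. H3K9me3 calls covered 9000, 8200 and 9400 bp in WT and 7800, 4800 and 8000 bp in KO, again without overlap.

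**Figure D4:**
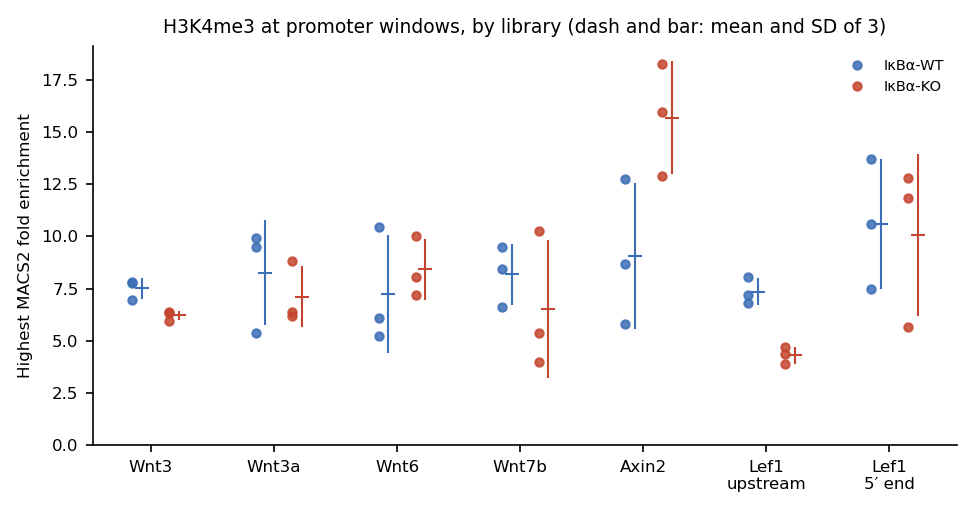
Highest H3K4me3 fold enrichment over input in each library at promoter peaks called in all 6 libraries, for Wnt3, Wnt3a, Wnt6, Wnt7b, Axin2, and the upstream and 5′ peaks of Lef1. The 3 KO points lie above the 3 WT points at Axin2 (12.9 to 18.3 against 5.79 to 12.8) and below them at the upstream peak of Lef1 (3.87 to 4.69 against 6.79 to 8.04).

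Axin2, a scaffold of the destruction complex and a direct target of β-catenin, had a stronger H3K4me3 peak in KO cells. The fold enrichment at its 5′ end (chr11:108920048-108922720) was 5.79, 8.67 and 12.8 in WT and 18.3, 12.9 and 15.9 in KO. The highest WT library lay just below the lowest KO library, and the log2 difference was 0.77 ± 0.25 (limma, adjusted p = 0.0408). The separation is of fold enrichments as deposited and the difference is of values centred on each library's median. Whether the groups stay apart after centring was not tested. The call did not hold without the first WT (adjusted p = 0.17), the second WT (0.0729), the first KO (0.151) or the third KO library (0.0936). Peaks within that region covered 1948, 2083 and 2352 bp in WT and 2326, 2092 and 2585 bp in KO, which overlapped. In the promoter window they covered 199, 208 and 212 bp in WT and 397, 351 and 402 bp in KO, without overlap (exact permutation test, p = 0.1). The window as a whole, which holds a further peak in the gene body, had 2322 to 2774 bp in WT and 2326 to 2810 bp in KO.

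None of the other marks at Axin2 passed the threshold, and their covered bp in the window overlapped between genotypes. H3K27ac covered 23600, 26452 and 22600 bp of the 40435 bp window in WT and 22852, 26452 and 28652 bp in KO, and its region at the 5′ end had a log2 density difference of 0.02. H3K27me3 covered 13252, 9400 and 15452 bp in WT and 6000, 9800 and 6400 bp in KO, where only the second library of each genotype crossed over (exact permutation test, p = 0.2). Over the gene body alone the H3K27me3 values were 9800, 8000 and 11652 bp in WT and 6000, 7652 and 6400 bp in KO, without overlap. The H3K27me3 regions at the 5′ end and in the gene body had log2 density differences of −0.01 and −0.33, and neither passed (edgeR, adjusted p = 0.988 and 0.362). H3K4me1 covered 31400 to 32400 bp in WT and 30000 to 33200 bp in KO. A pair of densities upstream did not overlap and did not pass: H3K9me3 was lower in KO (log2 difference −0.15; edgeR, adjusted p = 0.776), and H3K4me1 of a region that reaches only 52 bp into the window was higher (0.10; edgeR, adjusted p = 0.159).

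Wnt6, a canonical ligand gene that lies next to Wnt10a, had less H3K27me3 per kb in KO cells. The region (chr1:74757201-74815600), which spans both genes, had 108, 121 and 118 normalised reads per covered kb in WT and 83.7, 93.7 and 90.8 in KO. All KO libraries lay below all WT libraries, and the log2 difference was −0.37 ± 0.063 (edgeR, adjusted p = 0.00352). Without the first KO library it was −0.33 and the adjusted p was 0.05, and in the other alternatives that tested this region it passed. Assigned to the window of Wnt6 alone, the reads gave −0.45 (edgeR, adjusted p = 0.00324). The extent of the calls overlapped, with 23431 bp covered in every WT library and 23431, 19631 and 21631 bp in KO.

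The active marks at Wnt6 differed by less. H3K27ac at its 5′ end (chr1:74765001-74785400) had 57.1, 51.1 and 56.4 normalised reads per covered kb in WT and 61.2, 64.3 and 64.6 in KO, a log2 difference of 0.21 ± 0.060 (edgeR, adjusted p = 0.0402). It did not pass without TMM (0.15, adjusted p = 0.132), with TMM before the length offset (0.09, adjusted p = 0.31) or without the second WT (adjusted p = 0.139), the third WT (0.0544), the first KO (0.0589), the second KO (0.112) or the third KO library (0.111). The H3K27ac region next to it (chr1:74785801-74809600), which reaches towards Wnt10a, was lower in KO without overlap, with 53.8, 56.8 and 54.9 in WT and 51.8, 52.1 and 51.4 in KO, and did not pass (−0.09; edgeR, adjusted p = 0.26). H3K4me1 over Wnt6 and Wnt10a (chr1:74762401-74812600) had 123, 116 and 115 in WT and 113, 107 and 105 in KO, a log2 difference of −0.12 ± 0.032 (edgeR, adjusted p = 0.0467). It passed when the first KO library was left out and did not pass without the first WT (adjusted p = 0.168), the second WT (0.0694), the third WT (0.0603), the second KO (0.167) or the third KO library (0.191), nor with TMM before the length offset (0.264). The H3K4me3 peak at the Wnt6 5′ end had fold enrichments of 6.07, 5.2 and 10.4 in WT and 7.19, 10.0 and 8.03 in KO, which overlapped.

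Wnt5a, the prototype of the non-canonical ligands that act without β-catenin, had less sequence called for 3 marks. H3K27ac covered 22648, 23448 and 25648 bp of its 32699 bp window in WT and 12648, 14648 and 9248 bp in KO. No library of one group reached the other, and 6000 bp were called in all 3 WT and no KO library, the longest being 3000 bp at chr14:28517401-28520400 in the gene body. H3K4me1 covered 31048, 32699 and 27848 bp in WT and 25848, 24648 and 25448 bp in KO. H3K4me3 peaks covered 1097, 1068 and 2153 bp in WT and 589, 705 and 819 bp in KO, also without overlap. H3K27me3 covered 27899 to 28699 bp in WT and 25299 to 28099 bp in KO, and 98.1% of the 10600 bp that had H3K27ac in WT and not in KO (at least 2 of 3 libraries each) lay under H3K27me3 in WT and 86.8% in KO. Densities within the called regions of Wnt5a did not pass: the log2 difference was −0.08 for H3K27ac at the 5′ end, −0.17 for H3K27ac at the 3′ end and −0.09 for H3K4me1 (edgeR, adjusted p = 0.564, 0.281 and 0.237).

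Wnt3a, a canonical ligand needed for somite formation, was the only one of the 10 genes with more H3K27ac sequence in KO without overlap. Calls covered 20768, 23768 and 19968 bp of its 52720 bp window in WT and 28968, 38168 and 27568 bp in KO. In 3000 bp over the last exon and the 3′ flank (chr11:59247601-59250600) all 3 KO and no WT library had a call, and 2077 bp of this are annotated exon. In KO 28368 of the 30168 bp with H3K27ac in at least 2 libraries lay under H3K27me3, and in WT 20568 of 20968 bp did. The H3K27me3 region over Wnt3a (chr11:59235201-59338400) had 61.1, 68.4 and 62.9 normalised reads per covered kb in WT and 61.6, 62.6 and 62.3 in KO, which overlapped. None of the 4 H3K27ac regions in the window differed in density past the threshold, with log2 differences from −0.08 to 0.07. The H3K4me3 peaks at the 5′ end had fold enrichments of 5.36, 9.92 and 9.51 in WT and 6.17, 8.81 and 6.36 in KO.

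**Figure D5:**
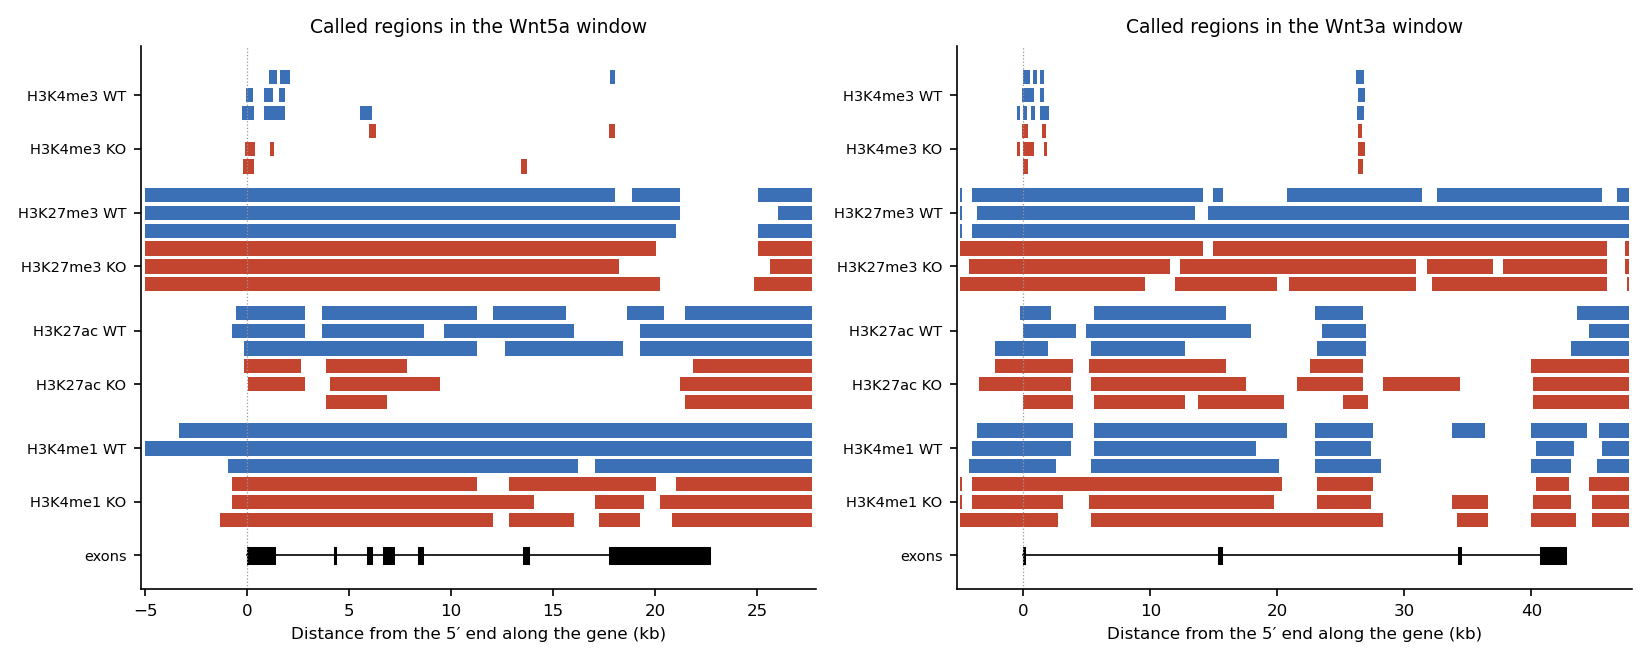
Calls of the H3K4me3, H3K27me3, H3K27ac and H3K4me1 libraries over the windows of Wnt5a and Wnt3a, by kb from the 5′ end, with WT libraries in blue and KO libraries in red. Within the body of Wnt5a some H3K27ac calls are shared by the WT libraries alone. All 6 libraries share 2800 bp in the body and 5848 bp that run from its 3′ end into the flank. At Wnt3a the KO libraries alone share a call over 3000 bp at the 3′ end.

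Wnt1 and Wnt10b are neighbouring canonical ligand genes, Wnt1 being known for midbrain development, and they lay in 1 H3K27me3 region (chr15:98763401-98812800). Its densities were 120, 139 and 139 normalised reads per covered kb in WT and 132, 142 and 133 in KO, the highest of the H3K27me3 regions at the 10 genes in the mean of each genotype, and they overlapped. H3K27ac at Wnt1 covered 6400, 6237 and 6037 bp of 13981 bp in WT and 4600, 2200 and 4600 bp in KO, and the 2000 bp called in all 3 WT and no KO library lay downstream of the gene (chr15:98796801-98798800). H3K4me3 peaks at Wnt1 covered 838, 1090 and 691 bp in WT and 0, 762 and 267 bp in KO, which overlapped. At Wnt10b they covered 568, 1248 and 791 bp in WT and 519, 523 and 0 bp in KO, without overlap. This order held for the window but not for the promoter window, where the mean was 69.3 bp higher in KO.

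The densities at Wnt10b pointed both ways and rest on different sequence. The regions on the gene itself had log2 differences of −0.24 for H3K27ac (chr15:98771201-98782800) and −0.16 for H3K4me1 (chr15:98770401-98782400), without overlap between genotypes in either and past the threshold in neither (edgeR, adjusted p = 0.0718 and 0.0925). The H3K4me1 region that was called higher (chr15:98712801-98769200; 0.11 ± 0.025, edgeR, adjusted p = 0.0171) begins 8950 bp downstream of the 5′ end, and only 3489 of its 56400 bp lie in the window. Its densities were 72.8, 70.8 and 71.2 in WT and 77.7, 77.5 and 76.7 in KO. The call did not hold without the second WT (adjusted p = 0.0649), the first KO (0.0637) or the second KO library (0.0575) or without TMM (0.076), and the difference was −0.0044 in a test of regions with like covered length and no offset.

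Wnt3, whose product is needed for gastrulation, had H3K4me3 fold enrichments at its 5′ end of 6.93, 7.82 and 7.76 in WT and 6.39, 5.96 and 6.31 in KO, without overlap (log2 difference −0.35; limma, adjusted p = 0.198). Its H3K27me3 region had 93.4, 103 and 98.9 normalised reads per covered kb in WT and 110, 112 and 107 in KO, again without overlap and not past the threshold (0.16; edgeR, adjusted p = 0.179). Its H3K27ac calls overlapped, with 16357 to 22557 bp in WT and 18357 to 25051 bp in KO. Wnt3 had H3K9me3 over 9600 to 12000 bp in WT and 5600 to 12200 bp in KO, of which 5200 bp in the gene body were called in all 6 libraries.

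Wnt7b, a ligand of placenta and lung development, carried H3K27ac over 44964 to 48564 bp of its 57037 bp window in WT and 47364 to 49564 bp in KO. H3K4me1 covered 44764, 48364 and 48964 bp in WT and 50364, 50837 and 49364 bp in KO, where the lowest KO library lay just above the highest WT library. The density of that mark over the 5′ end was lower in KO without overlap, with 99.7, 96.5 and 95.9 in WT and 93.2, 93.7 and 94.5 normalised reads per covered kb in KO, and did not pass (−0.05; edgeR, adjusted p = 0.297). Its H3K4me3 peak at the 5′ end overlapped, with fold enrichments of 8.43, 9.51 and 6.61 in WT and 10.3, 3.96 and 5.36 in KO.

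Wnt8a, a ligand of the early posterior embryo, had H3K4me1 at a lower density in KO. The region that holds the whole gene had 111, 110 and 101 normalised reads per covered kb in WT and 98.4, 90.9 and 91.7 in KO, without overlap (log2 difference −0.20 ± 0.045; edgeR, adjusted p = 0.0189). The call did not hold without the first WT (adjusted p = 0.0783), the second WT (0.0744), the second KO (0.0927) or the third KO library (0.0854), nor with TMM before the length offset (adjusted p = 0.0695). Assigned to the gene window, the reads gave −0.21 (edgeR, adjusted p = 0.0278). H3K27me3 there had 69.6, 73.6 and 74.7 in WT and 83.5, 76.8 and 83.6 in KO, without overlap and not past the threshold (0.16; edgeR, adjusted p = 0.225).

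The inputs were set beside these values because 1 input per genotype served all 3 replicates of a mark. Input reads per covered kb at the 10 genes differed between KO and WT by −0.20 to 0.03 on the log2 scale in the H3K27ac lists and by 0.04 to 0.33 in the H3K27me3 lists. Over the middle 90% of all genes these ranges were −0.24 to 0.30 and −0.10 to 0.47. At Lef1 the input difference was −0.10 in the H3K27ac lists and −0.14 in the H3K4me1 lists, against −0.06 for the median gene in both.

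The rest of the pathway was followed through 76 further genes, each by its merged regions at the promoter window. Such a region had only to overlap that window, and it can reach well beyond the gene. The shares of all genes with such a region that were higher and lower in KO were 18.5% and 3.95% for H3K27ac and 7.48% and 3.13% for H3K4me1. They were 10.5% and 10.7% for H3K4me3, 2.47% and 1.81% for H3K27me3, and 0.183% and 0.87% for H3K9me3. For H3K4me3, 5 of 65 genes were higher and 5 lower, and for H3K27me3 2 of 56 were higher and 3 lower. For H3K27ac, 11 of 57 were higher and 1 was lower. For H3K4me1, 2 of 75 were higher and 5 were lower, and the single gene with H3K9me3 passed in neither direction. Wnt10a is among those lower for H3K27me3 and H3K4me1 through the region it shares with Wnt6. The calls at these 76 genes were made with the reported settings alone, and no alternative was run for them.

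Among the receptors, which comprise Frizzled, LRP, ROR, RYK and LGR genes, H3K4me3 was higher at 3 of 18 (Fzd6, Fzd10 and Lgr4) and lower at 2 (Ryk and Lgr5). Of all genes with a tested H3K4me3 region, 10.5% were higher and 10.7% lower. At Fzd10 the fold enrichments were 7.69, 7.58 and 6.15 in WT and 12.3, 13.0 and 14.1 in KO (log2 difference 0.80; limma, adjusted p = 0.0125). At Lgr5, an R-spondin receptor and Wnt target, they were 7.25, 8.63 and 9.74 in WT and 4.81, 5.79 and 4.86 in KO (−0.80; limma, adjusted p = 0.0106). H3K4me1 at Fzd2 fell by 0.17 (edgeR, adjusted p = 0.0011), and at Fzd9 it rose by 0.11 (edgeR, adjusted p = 0.0266).

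Among the 11 of 14 inhibitor genes with a tested H3K4me3 region, H3K4me3 was higher at Sfrp4, which encodes a secreted Frizzled-related protein, and lower at Dkk1 and Wif1. The shares over all genes were 10.5% higher and 10.7% lower. At Sfrp4 the fold enrichments were 7.45, 5.62 and 8.34 in WT and 13.2, 14.9 and 20.3 in KO (1.09; limma, adjusted p = 0.00302). H3K27me3 at Dkk2, an LRP antagonist gene, had 78.1, 72.6 and 81.0 normalised reads per covered kb in WT and 53.3, 63.6 and 54.8 in KO (−0.43; edgeR, adjusted p = 0.0118). Of the potentiators, Rspo1 rose in H3K27me3 by 0.26 (edgeR, adjusted p = 0.0233), and of the other ligands Wnt7a rose by 0.24 (edgeR, adjusted p = 0.0417). H3K27ac at Sfrp2 fell by 0.22 (edgeR, adjusted p = 0.00719).

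Among the 11 nuclear partners H3K27ac was higher at 4 (Tcf7, Pygo2, Tle2 and Tle3) and lower at none. Among the 9 genes of the destruction complex and signal transduction it was higher at 3 (Gsk3a, Csnk1a1 and Dvl3) and lower at none. Of all genes with a tested H3K27ac region, 18.5% were higher and 3.95% lower. The sets are small, and whether they differ from all genes was not tested. These counts are from the reported scaling alone. Over all regions, the share of H3K27ac calls that were higher in KO was 64.2% with it and 34.9% without TMM. At the co-repressor gene Tle3 the densities were 63.5, 62.6 and 64.8 in WT and 74.1, 73.9 and 74.0 in KO (0.22; edgeR, adjusted p = 2.42e-05). These values are of the whole merged region chr9:61254801-61421800. Myc, one of the 6 target genes of the list, rose in H3K27ac by 0.16 over the whole merged region chr15:61974201-62194400 (edgeR, adjusted p = 0.000127). Bcl9, a β-catenin co-factor gene, fell in H3K4me1 by 0.21 (edgeR, adjusted p = 0.013), and the target gene Cdx1 rose in it by 0.23 (edgeR, adjusted p = 4.53e-05). At Dvl3, which transmits the receptor signal, H3K4me3 fell by 0.83 (limma, adjusted p = 0.0116) while H3K27ac was among those higher.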

How the data were processed

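ChIP-seq libraries of 3 WT and 3 KO clones per mark were grouped by GEO's labels. Per the paper's methods and the submitters' processing notes, the authors trimmed reads (Trim Galore 0.6.6), aligned those of H3K4me3, H3K27me3 and H3K4me1 to GRCm38 (Bowtie2 2.4.4), marked duplicates, left out multiply mapped reads and blacklisted sequence, and called regions in each library against 1 input per genotype. The processing of H3K9me3 and the aligner for H3K27ac are not given in the sources used here. For H3K4me3 the authors deposited MACS2 2.2.7.1 peaks without counts: each has a fold enrichment (a linear ratio over input), −log10 of its p-value and of its q-value, and a score. For the other marks the authors deposited epic2 regions in steps of 200 bp, with whole-number counts of ChIP and of input reads, and with a p-value, an FDR, a score and a log2 fold change over input. The lists hold calls with an FDR or q under 0.05.

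The members and the pathway and marker lists were chosen with earlier results of these data known. Covered bp were summed per gene window in Python 3.11.15 (numpy 2.4.6, pandas 2.3.3, scipy 1.17.1). Calls of the 6 libraries of a mark were merged where they overlapped by at least 1 bp, and merged regions called in all 6 were tested. Differences in ChIP counts were tested in R 4.3.3 with edgeR 4.0.16 (TMM, quasi-likelihood test, covered length of each library as an offset, so that values are reads per covered kb). H3K4me3 was compared with limma 3.58.1 on log2 of the highest fold enrichment, centred on each library's median, with no pseudocount. Overlap of fold enrichments between genotypes was judged before centring. DESeq2 1.42.0 was an alternative. SEs of edgeR differences are approximate. The scripts were tested on simulated data. All 10 members are named in every mark, and from the pathway list at most 2 genes higher and 2 lower per mark, those with the smallest adjusted p without overlap between genotypes. Pou5f1, Sox2, Nanog and Nfkbia are named as checks, and Esrrb, the markers of other lineages and other pathway genes were named after their values were seen. Where edgeR or limma compared 3 against 3 libraries, the p-values set the difference against the variation between these clones. That variation was estimated with information shared across all regions of the mark. One antibody stands in the labels for both H3K27ac and H3K4me1, and the paper's methods give a different one for H3K27ac, so which was used is not settled here. No reads outside calls were used and a gene without a call has no value.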

Additional observations from a re-analysis of the deposited data

How the results depend on the processing

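Of 500 alternatives for covered bp of single genes, 474 moved the difference by less than the spread between replicates, 25 moved it by more, and 1 turned a difference whose groups did not overlap, at Wnt10b, where H3K4me3 was −522 bp in the window and 69.3 bp in the promoter window. The sign also changed in 30 alternatives for 13 differences whose groups overlapped, among them H3K4me3 at Axin2 (31 bp, and −146 bp over the gene body) and at Wnt6 (224 bp, and −217 bp in the promoter window), so those have no stable direction. Of 135 alternatives for called regions, 97 kept direction and threshold, 37 kept the direction alone, and the H3K4me1 region downstream of Wnt10b changed sign to −0.0044 among regions of like covered length. The cause was not tested.

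The number of genes without overlap was 0 in the promoter window for H3K27ac (4 in the gene window), H3K4me1 (3) and H3K9me3 (1), and 3 over the gene body for H3K27me3 (1). Taking equally many top-ranked regions in each library, it was 5 for H3K4me3 (3). Leaving out 1 library gave counts of 4 to 6 for H3K27ac and 3 to 6 for H3K4me1, of 3 to 5 for H3K4me3, and of 1 to 2 each for H3K27me3 and H3K9me3, where fewer libraries overlap less often by construction. The count was 5 for H3K4me3 without the second WT or second KO library, 6 for H3K4me1 without the third WT or first KO library, 2 for H3K9me3 without the third KO library, and 2 for H3K27me3 without the second WT or any KO library.

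The number of regions past the threshold was 5 for H3K27me3 (1 as reported) both without the length offset and among regions of like covered length. For H3K27ac (2) it was 5 with TMM before the offset, 7 without the offset and 0 with reads assigned to gene windows, and for H3K4me1 (5) it was 3, 10 and 2, and 3 in the promoter window. The settings on TMM before the offset and on no offset were chosen after seeing the data. Leaving out 1 library gave 0 to 1 for H3K27me3, 1 to 2 for H3K27ac, 1 to 4 for H3K4me1 and 1 to 2 for H3K4me3. It was 0 for H3K27me3 without the first KO library and 1 for H3K27ac without any 1 of the KO libraries. For H3K4me1 it was 1 without the second KO library and 3 without any 1 of the WT libraries or the third KO library, and for H3K4me3 it was 1 without the first WT, the second WT or the third KO library.

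With the replicate number as a block the counts of regions were 6 for H3K4me1, 1 for H3K27ac, 2 for H3K4me3, 1 for H3K27me3 and 0 for H3K9me3, and the H3K27ac region of Wnt6 did not pass (edgeR, adjusted p = 0.0595). Same-numbered libraries did not deviate together in the pairing check, with correlations between −0.018 and 0.027 across regions, so the numbers were treated as names.

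H3K4me3 lists hold no counts, so the depth behind a peak is unknown. Sequence just under the calling threshold in 1 library counts as uncovered, and the extent of calls moves with the sensitivity of each library.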

Other observations

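Several of the ligand genes have a second Wnt gene beside them. Wnt9a, next to Wnt3a, had H3K4me3 peaks over a mean of 4.92% of its window in WT and 3.63% in KO, without overlap between the libraries. Wnt9b, next to Wnt3, also had less in KO, with 1447, 1409 and 1225 bp in WT and 957, 933 and 936 bp in KO. H3K4me1 at Wnt9b covered 19837, 13437 and 16037 bp in WT and 13237, 8037 and 9637 bp in KO, again without overlap, while its H3K27me3 covered 30658 to 31258 bp in WT and 31258 to 31458 bp in KO. Wnt10a, next to Wnt6, lay under H3K27me3 over all 22664 bp of its window in all 6 libraries, and its H3K27ac calls overlapped, with 20400 to 22085 bp in WT and 20600 to 21685 bp in KO. These 3 genes were looked at after the values of their neighbours were known.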
